A study of Mus musculus with 24 samples.

Results

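The 8 genes described here encode the proteins that bind and silence the methylated copy of imprinted regions in the mouse, and they were chosen by name out of 34745 genes in the deposited table. They are *Zfp57* and *Zfp445*, which encode KRAB zinc-finger DNA-binding proteins, *Trim28*, which encodes the corepressor, *Setdb1*, which encodes a histone H3K9 methyltransferase, *Cbx1*, *Cbx3* and *Cbx5*, which encode the HP1 proteins, and *Atrx*, which encodes a chromatin remodeler. RNA-seq was performed with 12 total embryos at E13.5 of the hybrid 129/DBA background, with 1 library per embryo. Of these, 6 were labelled Zfp57-/+ (M-Z+) and 6 were labelled Zfp57-/- (M-Z-). A M-Z+ embryo developed without maternal *Zfp57* but inherited a wild-type allele from its father, whereas a M-Z- embryo had neither maternal nor zygotic *Zfp57*. Thus all 12 embryos lacked maternal *Zfp57*, and the genotypes compared differ in the zygotic gene. In the paper, the mutant allele from the father came from 129 mice and was kept on a mainly DBA background. Sequence linked to this allele may therefore differ with the genotype as well, and its part cannot be told apart. RNA-seq of embryos with maternal *Zfp57* was not analysed here, and the labels do not give sex, litter or batch, so the p-values measure the spread among these embryos.

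A KRAB zinc-finger protein finds its target by sequence and recruits TRIM28 (also named KAP1) through the KRAB box. TRIM28 in turn brings in SETDB1, which methylates histone H3 on K9, and the HP1 proteins, which bind this mark. At imprinting control regions ZFP57 recognizes a methylated hexamer, TGCCGC, on the methylated parental allele, and the recruited proteins help to keep the DNA methylated through the divisions of the early embryo. ZFP445 acts at many of the same regions, and ATRX works with DAXX to place histone H3.3 into silent chromatin. The complex is made of proteins that most cells share, apart from the zinc-finger proteins that direct it.

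The sequences just before the start sites of 5 of the genes are shown here because the comparisons below turn on them. *Zfp57* is the gene that was mutated. *Zfp445*, *Setdb1* and *Cbx5* varied together among embryos, as did *Atrx*, whose sequence is not shown. *Trim28* was the only one of the 8 genes with the ZFP57 hexamer in a window. Each run is the 250 bases before a RefSeq start site on GRCm38.p6, written 5′ to 3′ on the strand of the gene, and capitals mark the hexamer TGCCGC or its reverse complement GCGGCA.
*Zfp57*, chr17:37000913-37001162, plus strand: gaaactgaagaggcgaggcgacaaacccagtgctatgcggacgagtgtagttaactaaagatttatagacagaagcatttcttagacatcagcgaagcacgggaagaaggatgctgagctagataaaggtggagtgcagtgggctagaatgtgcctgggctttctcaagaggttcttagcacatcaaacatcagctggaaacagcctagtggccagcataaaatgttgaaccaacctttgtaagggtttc
*Zfp445*, chr9:122866007-122866256, minus strand: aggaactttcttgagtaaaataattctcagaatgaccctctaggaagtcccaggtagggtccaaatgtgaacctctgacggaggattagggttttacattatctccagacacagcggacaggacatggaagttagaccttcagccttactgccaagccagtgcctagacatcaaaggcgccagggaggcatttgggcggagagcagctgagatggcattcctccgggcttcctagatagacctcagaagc
*Trim28*, chr7:13023902-13024151, plus strand: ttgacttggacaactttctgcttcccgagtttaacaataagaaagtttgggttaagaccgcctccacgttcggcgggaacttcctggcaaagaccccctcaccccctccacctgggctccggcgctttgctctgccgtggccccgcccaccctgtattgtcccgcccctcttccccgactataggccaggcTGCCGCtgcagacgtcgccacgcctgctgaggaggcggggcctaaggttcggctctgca
*Setdb1*, chr3:95357203-95357452, minus strand: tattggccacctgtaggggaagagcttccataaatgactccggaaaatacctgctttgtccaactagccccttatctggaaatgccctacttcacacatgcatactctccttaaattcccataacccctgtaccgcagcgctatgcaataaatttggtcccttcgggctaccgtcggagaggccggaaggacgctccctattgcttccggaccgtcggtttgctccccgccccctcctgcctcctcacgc
*Cbx5*, chr15:103239853-103240102, minus strand: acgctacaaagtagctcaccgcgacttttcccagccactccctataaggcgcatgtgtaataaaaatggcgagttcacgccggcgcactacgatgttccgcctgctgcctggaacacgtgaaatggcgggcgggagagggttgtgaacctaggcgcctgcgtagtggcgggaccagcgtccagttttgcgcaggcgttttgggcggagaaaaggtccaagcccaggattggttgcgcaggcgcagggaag

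RefSeq lists 12 such windows for the 8 genes, and only the window of *Trim28* held the hexamer, at position -59 from the start site. Among 32851 windows of the same length over all genes, 8.68% held it. The 250 bases of *Trim28* contained 17 CpG sites, those of *Setdb1* 13, those of *Cbx5* 22, those of *Zfp57* 6 and those of *Zfp445* 5, beside a median of 6.0 over all windows. *Cbx5* has another window, with 7 CpG sites, and *Zfp57* has others with 7 and 3, and those shown are the most upstream of each gene. The presence of these letters is a description and not a binding site.

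The libraries differed in depth. M-Z+ replicates 4 and 6 were the deepest, at 18359022 and 19216288 counts, and the next was M-Z+ replicate 5 at 15162661. The M-Z+ libraries held between 12347383 and 19216288 counts on genes and the M-Z- libraries between 12005145 and 14617373. Counts were scaled to CPM, the count as a share of the library, with TMM factors. The labels were checked on *Rtl1*, an imprinted gene controlled by a region that ZFP57 protects, which had 164 to 260 counts in M-Z+ embryos and 0 to 2 in M-Z- embryos. Lists of neural, hepatocyte, erythroid, muscle and dividing-cell markers were all present, and the summed level of each overlapped between genotypes. The neural marker *Stmn2* did not overlap, at 245.9 to 278.0 CPM in M-Z+ and 205.5 to 242.1 CPM in M-Z- embryos, as for 0.574% of all genes tested. The other neural markers overlapped. Of 6 trophoblast markers, 4 were at 0 in all embryos and the 6 summed to at most 0.141 CPM, so placental tissue was near 0. These are whole embryos, in which fewer cells of a type and less RNA per cell cannot be told apart.

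The first question was whether loss of zygotic *Zfp57* changed the RNA level of the complex. None of the 8 genes was called changed between the genotypes. A gene was called when the adjusted p of the edgeR quasi-likelihood test was under 0.05 and the log2 fold change was beyond 0.5. Over all 16026 genes tested, 13 were called, or 0.0811%, so that a count of 0 among 8 genes is near what the background gives. Without adjustment none of the 8 passed 0.05 in this fit, compared with 6.7% of all genes. DESeq2 called 37 genes, or 0.231%, and again none of the 8. The values of the 2 genotypes overlapped for all 8 genes, whereas they did not overlap for 0.574% of all genes.

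**Figure D1:**
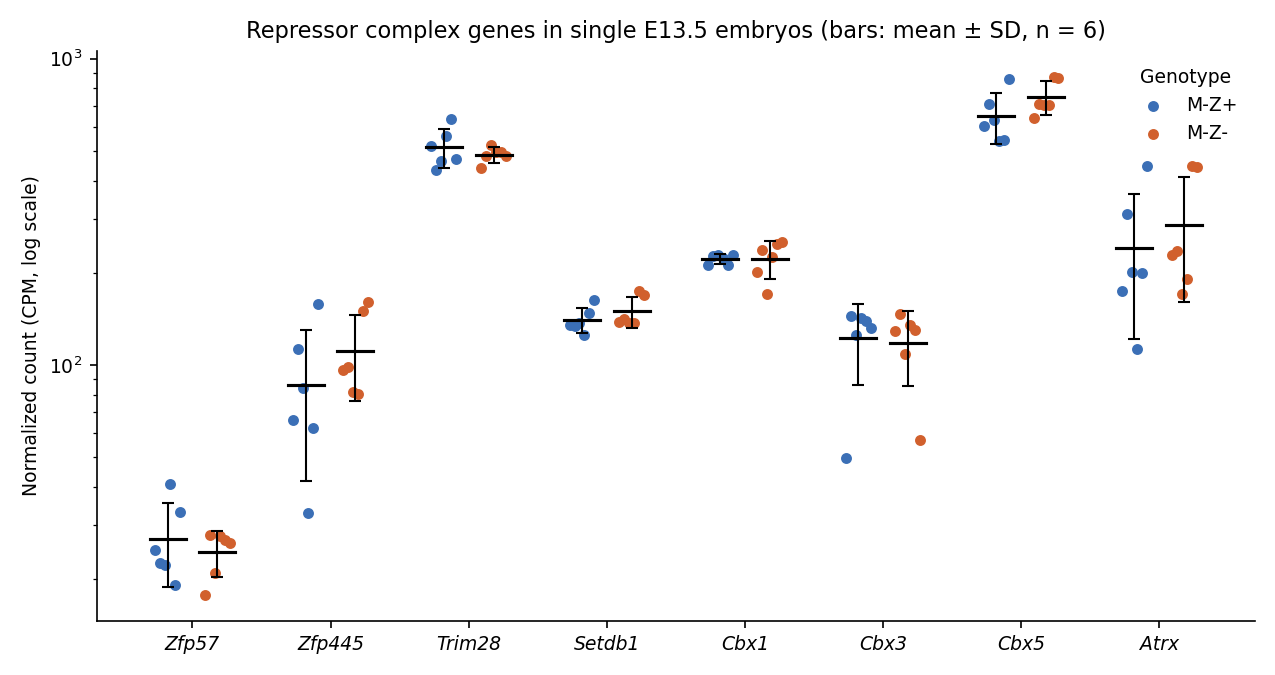
CPM of the 8 genes on a log axis, with 1 point per embryo (blue, M-Z+; orange, M-Z-) and bars for the mean ± SD of 6 embryos. The genotypes overlap for every gene, and *Cbx3* has 1 embryo of each genotype far below the rest, at 49.53 and 56.81 CPM.

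*Zfp57* itself was present in both genotypes at a low level. Its CPM had a lowest value of 19.1, a median of 23.7 and a highest value of 40.8 in M-Z+ embryos, and 17.8, 26.5 and 27.8 in M-Z- embryos. Thus reads were counted on the mutated gene in embryos labelled Zfp57-/-, with 214 to 384 counts each. The labels do not name the deleted part of the gene, so the count over the whole gene does not check the genotype. The log2 fold change was -0.15 ± 0.18 (SE, n = 6 and 6 embryos, 95% interval -0.54 to 0.24, edgeR adjusted p = 0.828), and 2 of 6 M-Z- embryos were above the M-Z+ mean. M-Z+ replicate 4 was the highest at 40.8 CPM, followed by M-Z+ replicate 6 at 33.2 CPM, and without replicate 4 the log2 fold change was 0.0042. *Zfp57* lies on chr17:37001163-37010635 of GRCm38.

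*Zfp445*, on chr9:122851914-122862128, encodes the other zinc-finger protein that protects imprints. The deposited locus ends before the RefSeq start site of the sequence shown above, so reads of the most upstream part of the gene may not have been counted. The lowest, median and highest values were 32.8, 74.9 and 157.9 CPM in M-Z+ embryos and 80.5, 97.4 and 160.3 CPM in M-Z- embryos. The spread within M-Z+ embryos was therefore 4.815-fold, and M-Z+ replicate 4 was the lowest of all 12 embryos. The log2 fold change was 0.37 ± 0.31 (SE, 95% interval -0.29 to 1.04, edgeR adjusted p = 0.768). It depended on single libraries, since it was 0.20 without M-Z+ replicate 4 and 0.63 without M-Z+ replicate 6 (95% interval 0.05 to 1.22, edgeR unadjusted p = 0.0366, adjusted p = 0.283). The *Zfp57* to *Zfp445* ratio is described below.

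*Trim28*, on chr7:13024152-13031035, encodes the corepressor through which both zinc-finger proteins act. It had 433.1, 494.6 and 637.5 CPM as the lowest, median and highest values in M-Z+ embryos and 438.3, 487.5 and 523.4 CPM in M-Z- embryos. The highest was M-Z+ replicate 5, and the other 11 embryos were between 433.1 and 560.1 CPM. The log2 fold change was -0.08 ± 0.09 (SE, 95% interval -0.28 to 0.12, edgeR adjusted p = 0.810), and the interval lies within the limit of 0.5.

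*Setdb1*, on chr3:95323525-95357202, had 125.0, 136.2 and 163.0 CPM in M-Z+ embryos and 136.8, 139.9 and 174.5 CPM in M-Z- embryos. The highest embryos were M-Z+ replicate 6 and M-Z- replicates 5 and 6. The log2 fold change was 0.09 ± 0.09 (SE, 95% interval -0.09 to 0.28, edgeR adjusted p = 0.782). The gene shares 75 bases with *Cers2* and also overlaps *Gm37500*, and reads in the shared part could have been assigned to either.

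The HP1 genes were next, which encode the readers of methylated H3K9. *Cbx1* (HP1β), on chr11:96789127-96808640, was the most even of the 8 genes in M-Z+ embryos, with 211.3, 225.6 and 228.5 CPM, and it ranged more widely in M-Z- embryos, with 170.6, 231.0 and 252.7 CPM. Its log2 fold change was 0.00 ± 0.09 (SE, 95% interval -0.19 to 0.20, edgeR adjusted p = 0.991). The lowest value was that of M-Z- replicate 3. *Cbx5* (HP1α), on chr15:103191544-103239816, had 539.4, 617.7 and 861.2 CPM in M-Z+ embryos and 639.8, 710.4 and 873.7 CPM in M-Z- embryos, and 5 of 6 M-Z- embryos were above the M-Z+ mean. Its log2 fold change was 0.21 ± 0.12 (SE, 95% interval -0.05 to 0.47, edgeR adjusted p = 0.749, two-sided exact permutation p = 0.1212), the smallest p of the 8 genes. Without M-Z+ replicate 6 it was 0.30 (95% interval 0.08 to 0.52, edgeR unadjusted p = 0.0114, adjusted p = 0.267).

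*Cbx3* (HP1γ), on chr6:51470360-51483704, was split. It was low in M-Z+ replicate 1 with 49.53 CPM and in M-Z- replicate 6 with 56.81 CPM, and it was between 108.9 and 147.1 CPM in the other 10 embryos. In counts these embryos had 615 and 806 reads on the gene, whereas the others had between 1295 and 2650. The lowest, median and highest values were 49.53, 135.9 and 144.1 CPM in M-Z+ embryos and 56.81, 129.5 and 147.1 CPM in M-Z- embryos. The low embryos were 1 of each genotype, and the log2 fold change was near 0 (-0.05 ± 0.25, SE, 95% interval -0.59 to 0.49, edgeR adjusted p = 0.955). The table lists 7 *Cbx3* pseudogenes, of which 2 had counts, and together they had 1760 counts in M-Z+ replicate 1 and 2326 in M-Z- replicate 6. Their summed level was 141.7 to 163.9 CPM in the low embryos and within the range of 113.5 to 184.0 CPM over all 12. The neighbouring gene *Hnrnpa2b1* was not low in these embryos, with 1202 and 1266 CPM, in a range of 1045 to 1374 CPM.

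*Atrx*, on chrX:105797615-105929403, had the largest coefficient of variation of the 8 genes over the 12 embryos, whereas the fold range was larger for *Zfp445* (4.887 compared with 3.97). It had 112.5, 200.8 and 446.6 CPM in M-Z+ embryos and 170.8, 231.7 and 446.6 CPM in M-Z- embryos. The highest values were those of M-Z+ replicate 6 (446.6 CPM) and of M-Z- replicates 5 and 6 (446.6 and 443.3 CPM), and M-Z+ replicate 4 was the lowest. The log2 fold change was 0.25 ± 0.33 (SE, 95% interval -0.45 to 0.95, edgeR adjusted p = 0.841), and it was 0.07 without M-Z- replicate 5 or 6, 0.10 without M-Z+ replicate 4 and 0.51 without M-Z+ replicate 6. *Atrx* is on the X chromosome. Of the high embryos, M-Z- replicate 5 had *Xist* at 3628 CPM. *Xist* was below 1 CPM in M-Z+ replicate 6 and M-Z- replicate 6, in which the Y-linked genes summed to 311.1 and 297.8 CPM. M-Z+ replicate 3 had neither, at 0.1522 CPM for each. In the remaining embryos, *Atrx* was 112.5 to 200.3 CPM in those with *Xist* and 173.9 to 311.6 CPM in those with Y-linked transcripts. What part sex has in the level of *Atrx* was not tested.

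**Figure D2:**
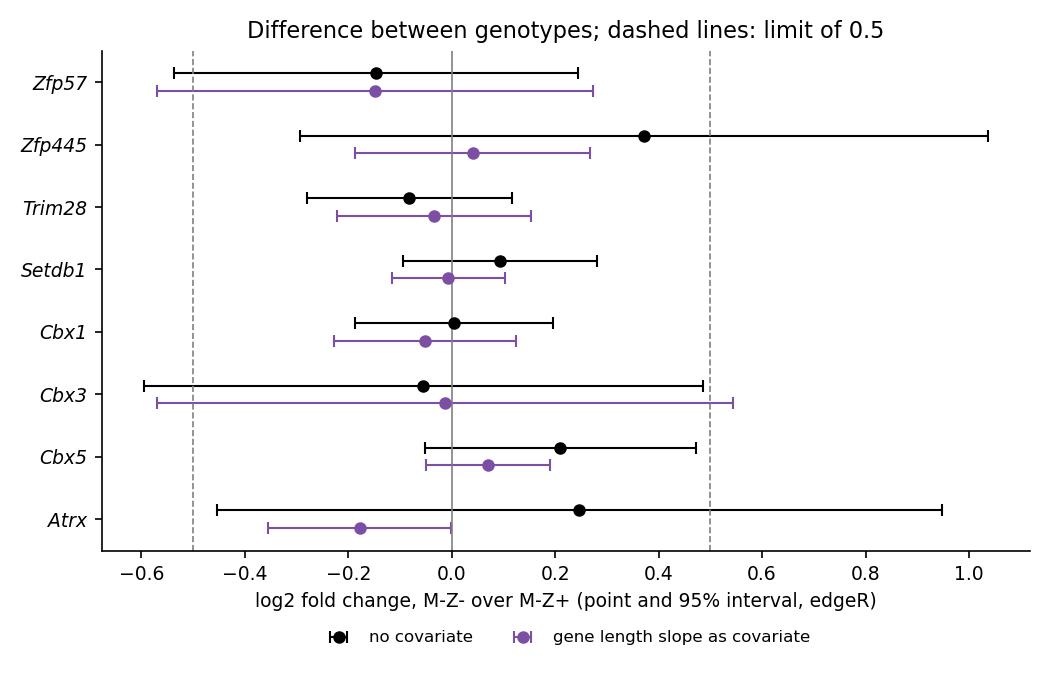
Log2 fold change of M-Z- over M-Z+ embryos for the 8 genes from edgeR, with 95% intervals, without a covariate (black) and with the length slope of the libraries added as a covariate (purple). Dashed lines mark the limit of 0.5. The intervals of *Zfp445*, *Setdb1*, *Cbx5* and *Atrx* become narrower with the covariate, and *Atrx* moves from 0.25 to -0.18.

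The spread among embryos was large for some of the 8 genes and small for others. The coefficient of variation over the 12 embryos was 45.2% for *Atrx*, 40.7% for *Zfp445*, 27.4% for *Cbx3* and 24.7% for *Zfp57*. Of genes with a mean level within 2-fold, 99.1%, 98.1%, 92.7% and 87.6%, respectively, had a lower one. For *Cbx5* it was 16.8%, for *Trim28* 11.3%, for *Setdb1* 10.7% and for *Cbx1* 9.82%, beside medians of 11.6% to 13.01% for genes of like level.

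The high and low embryos were shared by 4 of the genes. For each library, log2 CPM relative to the mean of the 12 was regressed on the log2 of gene length, and the resulting length slope, which is above 0 when reads favour long genes, ranged from -0.1244 in M-Z+ replicate 4 to 0.106 in M-Z- replicate 6. M-Z+ replicate 6, M-Z- replicate 5 and M-Z- replicate 6 stood apart at 0.1043, 0.0966 and 0.106, and the highest of the other 9 was 0.0058. *Atrx*, *Zfp445*, *Cbx5* and *Setdb1* were highest in these 3 embryos. The slope used the lengths implied by the deposited FPKM, by which *Atrx* (36501 bases) and *Cbx5* (13044) were the longest of the 8. *Zfp445* was the shortest at 2961 bases, and *Setdb1* had 8582. *Zfp57*, *Trim28*, *Cbx3* and *Cbx1* had 9110, 7471, 7214 and 6018 bases. By these lengths, the 4 genes that were highest in these embryos were not the 4 longest. By the union of exons in GENCODE vM1, *Atrx* (15190 bases), *Cbx5* (9006) and *Setdb1* (6853) were the 3 longest. *Zfp57* then had 3786 bases, and *Zfp445* was again the shortest at 2961. Over the 12 embryos, the correlation of log2 CPM with the slope, both as deviations from the genotype mean, was r = 0.98 for *Atrx*, 0.95 for *Zfp445*, 0.93 for *Cbx5* and 0.89 for *Setdb1* (Spearman's rho 0.96, 0.93, 0.80 and 0.93; adjusted permutation p from 4e-05 to 0.00528 over 8 relations in r and rho, the lowest of which stems from the smallest p that 100000 permutations can give). Without M-Z+ replicate 6 and M-Z- replicate 6, the 2 embryos farthest from the median of the slope as a deviation from the genotype mean, the r values were 0.97, 0.93, 0.85 and 0.80. Over the 9 embryos of lower slope alone, the relation was r = 0.98 for *Zfp445* and 0.95 for *Atrx* (rho 0.92 and 0.85; adjusted permutation p = 0.0004 and 0.00468 for r), whereas it did not pass for *Cbx5* (r = 0.73, adjusted permutation p = 0.0961) or *Setdb1* (r = 0.53, adjusted permutation p = 0.213), so the relation of these 2 genes rests in part on the 3 embryos. For *Zfp57*, *Trim28*, *Cbx1* and *Cbx3* the relation did not pass in r, with values of 0.07, -0.38, 0.47 and -0.17 over the 12 embryos, although *Cbx1* passed in rho alone (0.66, adjusted permutation p = 0.0373). Over the 9 embryos of lower slope, r was -0.70 for *Zfp57* (adjusted permutation p = 0.0961), of a size like that of *Cbx5*. In rho these 2 genes were at -0.53 and 0.68 (adjusted permutation p = 0.239 and 0.133). M-Z+ replicate 4, which had the lowest slope, also had the highest *Zfp57* of these embryos, at 40.8 CPM.

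**Figure D3:**
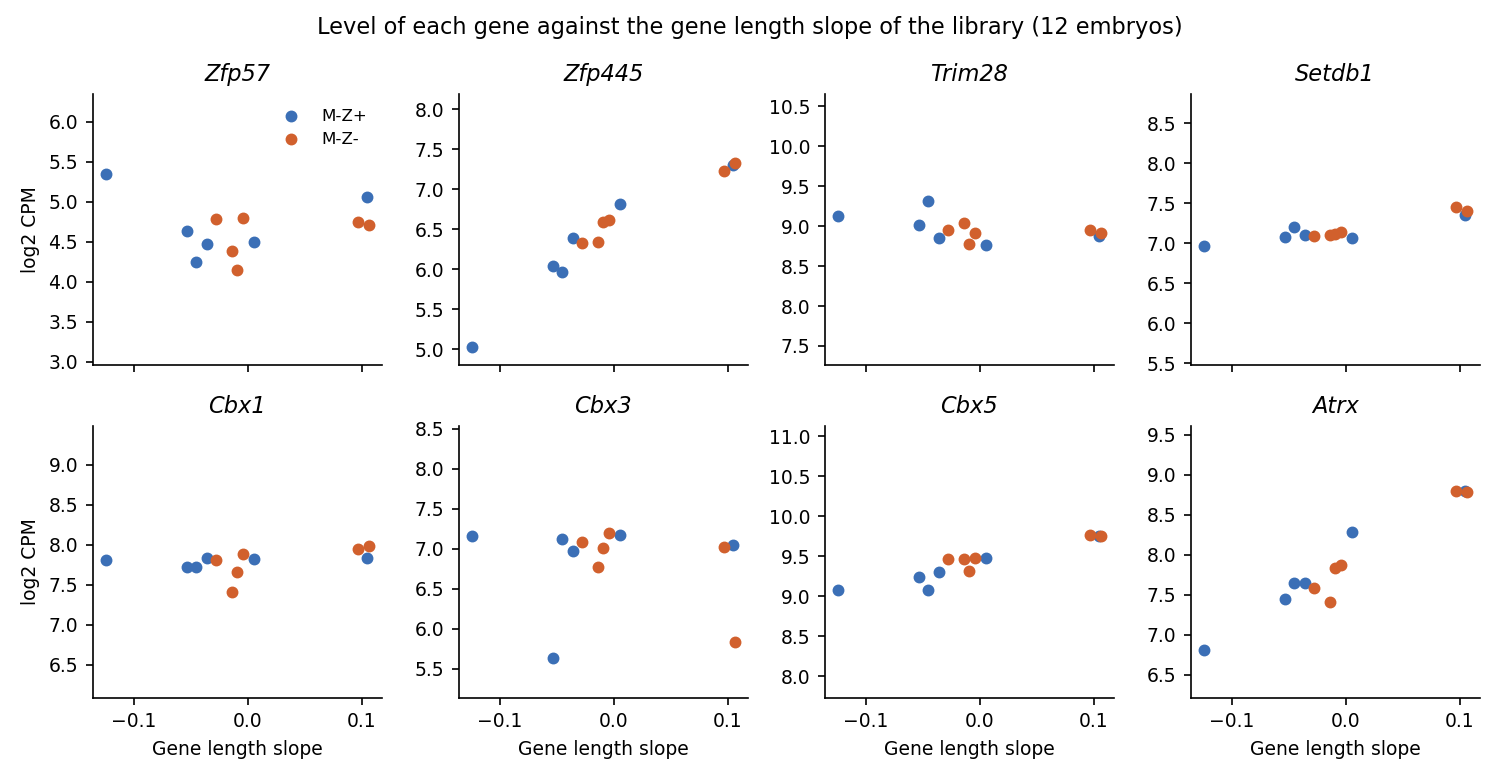
Log2 CPM of each gene against the gene length slope of its library, with 1 point per embryo (blue, M-Z+; orange, M-Z-) and an axis of the same height in each panel. *Atrx* and *Zfp445* rise along the slope over the whole range, and *Cbx3* is flat apart from the 2 low embryos.

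With the slope as a covariate in edgeR, the log2 fold changes of these 4 genes moved toward or past 0. *Zfp445* went from 0.37 to 0.04 (95% interval -0.19 to 0.27), *Cbx5* from 0.21 to 0.07 (-0.05 to 0.19), *Setdb1* from 0.09 to -0.01 (-0.12 to 0.10) and *Atrx* from 0.25 to -0.18 (-0.35 to -0.001). The last had an unadjusted p of 0.0488 and an adjusted p of 0.506, and it is the only one of the 8 that passed 0.05 before adjustment in this fit. The fit called 22 genes in all, or 0.137%, and none of the 8. DESeq2 with the same covariate called 63 genes, or 0.393%, and none of the 8. M-Z- embryos held 2 of the 3 embryos with a high slope, M-Z+ embryos 1, and the lowest slope was a M-Z+ embryo. What part the slope has in the levels of these genes was not tested. Without the 3 embryos, the log2 fold changes were 0.31 for *Zfp445*, 0.18 for *Cbx5*, 0.02 for *Setdb1* and 0.04 for *Atrx*, with adjusted p of edgeR from 0.638 to 0.963.

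The second question was whether the 8 genes varied together. Over the 12 embryos, 6 of 28 pairs passed an adjusted permutation p of 0.05 in Pearson's r, all positive and all among *Zfp445*, *Setdb1*, *Cbx5* and *Atrx*. In Spearman's rho, *Setdb1* with *Cbx5* did not pass, and *Cbx1* with *Cbx5* (rho = 0.78, r = 0.49, adjusted permutation p = 0.0206 for rho and 0.285 for r) and *Cbx1* with *Atrx* (rho = 0.73, r = 0.57, adjusted permutation p = 0.039 for rho and 0.191 for r) passed. The highest was *Zfp445* with *Atrx* (r = 0.96, rho = 0.93, adjusted permutation p = 0.00028 and 0.00168), and it was 0.95 without the 2 embryos farthest from the median. The other 5 ranged from r = 0.75 (*Setdb1* with *Cbx5*; rho = 0.67, adjusted permutation p = 0.0599 for rho; r = 0.48 without the 2 farthest) to r = 0.90 (*Zfp445* with *Cbx5*). Over the 9 embryos of lower slope, 1 of the 28 pairs passed in r, *Zfp445* with *Atrx* (r = 0.95, adjusted permutation p = 0.028; rho = 0.87, adjusted permutation p = 0.108). With the slope removed from each gene, none of the 6 pairs passed in r, and *Zfp445* with *Atrx* fell to 0.42. *Trim28* with *Setdb1*, at r = 0.01 before, was then at r = 0.83 (adjusted permutation p = 0.0448; rho = 0.67, adjusted permutation p = 0.189; r = 0.54 without the 2 farthest embryos). *Zfp445* with *Trim28* was then negative and passed in rho alone (rho = -0.85, adjusted permutation p = 0.0252, r = -0.73, adjusted permutation p = 0.0925). *Zfp57* did not pass with any of the other 7 genes in any of the 3 settings, in r or in rho.

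**Figure D4:**
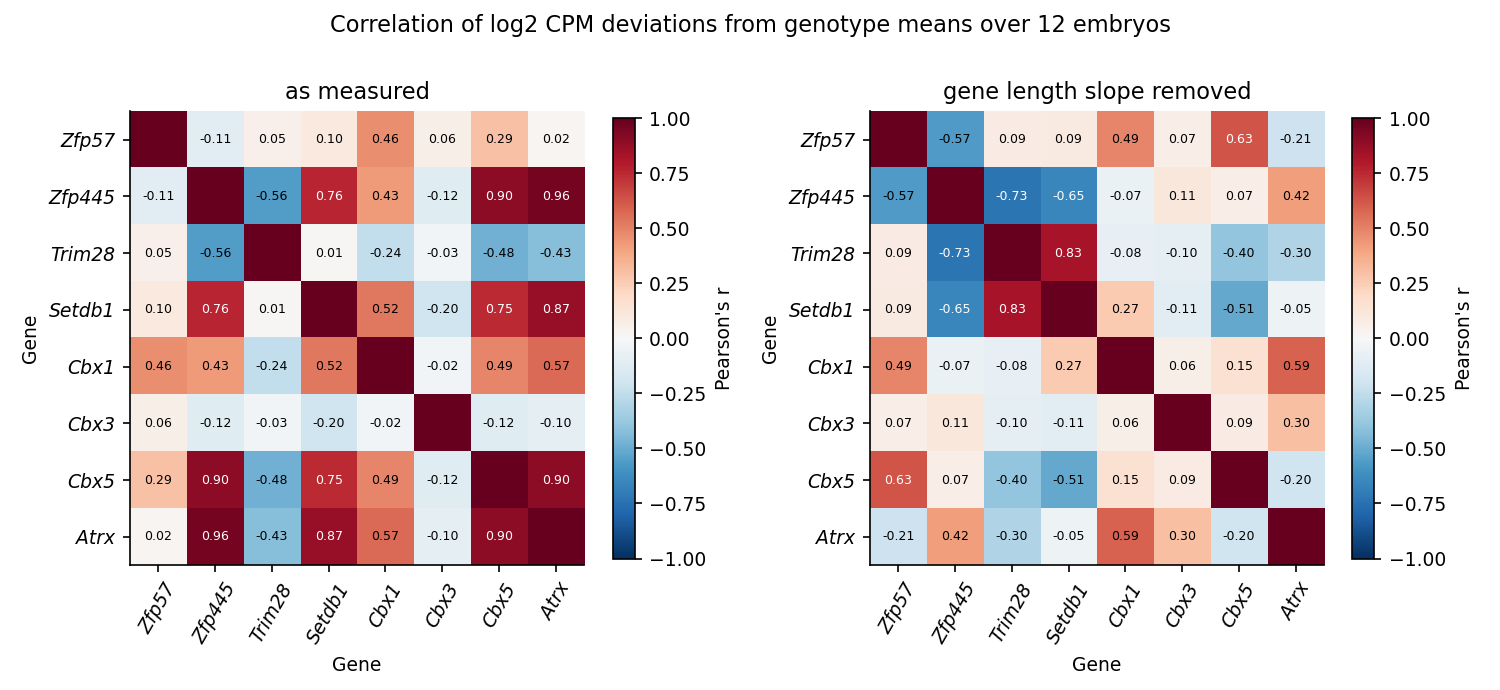
Pearson's r between the 8 genes over 12 embryos, of log2 CPM deviations from the genotype mean, as measured (left) and after the gene length slope was removed (right). The block of high values among *Zfp445*, *Setdb1*, *Cbx5* and *Atrx* on the left is not on the right, where *Trim28* with *Setdb1* is at 0.83.

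Levels between genes were compared per length, as TPM, in which the count is divided by the gene's length and by the library's total, and the order depends on the length used. With the lengths that the deposited FPKM values imply, the medians over 12 embryos were 238.3 TPM for *Trim28*, 188.8 for *Cbx5*, 131.3 for *Cbx1*, 107.6 for *Zfp445*, 64.7 for *Cbx3*, 57.0 for *Setdb1*, 20.8 for *Atrx* and 9.89 for *Zfp57*. Each of these genes kept its place before the next in 7 to 12 of 12 embryos, and *Cbx3* and *Setdb1* were the least separable, at 7 of 12. The FPKM length was 1.0 to 2.41 times the union of exons in GENCODE vM1, and for *Trim28* it was 7471 bases, longer than the gene's own span of 6884. With the union of exons the medians were 355.8 for *Trim28*, 219.8 for *Cbx5*, 148.7 for *Cbx1*, 116.6 for *Cbx3*, 86.6 for *Zfp445*, 57.6 for *Setdb1*, 40.3 for *Atrx* and 19.2 for *Zfp57*. *Trim28*, *Cbx5* and *Cbx1* were the highest and *Atrx* and *Zfp57* the lowest in both, while *Zfp445* and *Cbx3* changed places.

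The 3 HP1 genes were present in similar shares in both genotypes. With the FPKM lengths, *Cbx5* was 47.8% ± 4.8 of their summed TPM in M-Z+ embryos and 51.9% ± 3.9 in M-Z- embryos (SD, n = 6), *Cbx1* was 35.9% ± 3.1 and 33.3% ± 2.4, and *Cbx3* was 16.3% ± 4.6 and 14.9% ± 4.2. The differences in log2 share were 0.12 for *Cbx5*, -0.11 for *Cbx1* and -0.13 for *Cbx3*, and none passed the exact permutation test adjusted over 8 ratios (adjusted p from 0.357 to 0.638). The share of *Cbx3* was 7.77% in M-Z+ replicate 1 and 6.79% in M-Z- replicate 6.

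**Figure D5:**
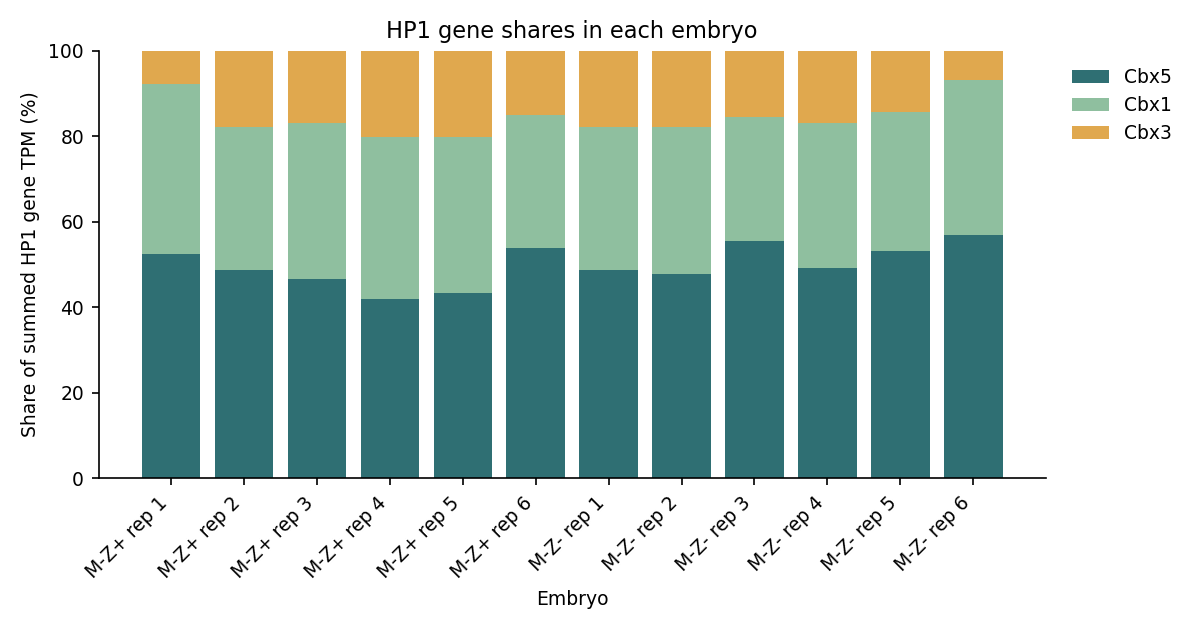
Share of each HP1 gene in their summed TPM, in percent, for each of the 12 embryos, with the lengths implied by the deposited FPKM. *Cbx5* has the largest share in every embryo, and *Cbx3* is smallest in M-Z+ replicate 1 and M-Z- replicate 6.

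None of the ratios between other members passed the adjusted exact permutation test between genotypes, which does not exclude a difference. With the FPKM lengths, *Zfp57* was a median of 0.0848 of the TPM of *Zfp445* over the 12 embryos and 0.0436 of that of *Trim28*. With the union of exons these medians were 0.204 and 0.0568, and the differences between genotypes in ratios of 1 gene to another do not depend on the length. The log2 ratio of *Zfp57* to *Zfp445* was -3.17 ± 0.97 in M-Z+ embryos and -3.77 ± 0.43 in M-Z- embryos (SD, n = 6, two-sided exact permutation p = 0.1883, adjusted p = 0.357). M-Z+ replicate 4 had the highest ratio, in which *Zfp57* was highest and *Zfp445* lowest, and without it the difference went from -0.60 to -0.22. *Zfp445* to *Trim28* differed by 0.55 and *Setdb1* to *Trim28* by 0.16 in log2 (M-Z- minus M-Z+, both adjusted p of the exact permutation test = 0.357), and the former was 0.28 without M-Z+ replicate 4. With the length slope removed, the differences were -0.18 for *Zfp57* to *Zfp445*, 0.08 for *Zfp445* to *Trim28* and 0.02 for *Setdb1* to *Trim28*. *Atrx* to *Daxx*, its partner, was at a median ratio of 0.994 with the FPKM lengths and differed by 0.33 (exact permutation test, adjusted p = 0.560), or by -0.15 with the length slope removed. The ratio of *Zfp57* to *Trim28* differed by -0.04 (exact permutation test, adjusted p = 0.842).

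The genes around the complex were also not called. Of 124 gene symbols in 9 lists of partners and relatives, 121 are in the table, 111 were tested, and 0 were called by edgeR. A symbol that is not in the table may be another name of a gene that is. Over all genes tested, 0.0437% were called higher and 0.0374% lower in M-Z- embryos. Without adjustment, 2 of the 111 passed 0.05, compared with 6.7% of all genes: *Cbx6*, a Polycomb-type chromobox gene in the list of HP1 partners (log2 fold change 0.15 ± 0.06, SE, adjusted p of edgeR = 0.744), and *Dnmt3a*, a de novo DNA methyltransferase (0.22 ± 0.10, SE, adjusted p of edgeR = 0.745). The log2 fold change was above 0 for 75 and below 0 for 36 of the 111, with a median of 0.05, compared with -0.01 over all genes tested. With the length slope as a covariate, 56 were above 0 and the median was 0.00.

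Among the H3K9 methyltransferases and SETDB1 partners, 10 genes were tested and none was called. *Atf7ip*, the cofactor of SETDB1, had a log2 fold change of 0.05 ± 0.07 (SE), *Suv39h1* -0.01 ± 0.07 and *Suv39h2* -0.19 ± 0.14, the lowest of the list, and these last 2 encode methyltransferases of pericentromeric chromatin. *Ehmt1* and *Ehmt2*, which encode the GLP and G9a enzymes of euchromatin, were at 0.04 ± 0.09 and 0.00 ± 0.09. *Atf7ip2*, with about 1 CPM, was the highest at 0.37 ± 0.32.

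None of the 19 tested genes in the list of TRIM28 relatives and the NuRD corepressor was called, and the list holds some other genes too. The TRIM28 relatives *Trim24* and *Trim33* were at 0.09 ± 0.11 and 0.20 ± 0.13 (SE). *Morc3*, which is neither a TRIM28 relative nor a NuRD gene, was at 0.14 ± 0.11. *Chd4*, which encodes the ATPase of NuRD, was at 0.08 ± 0.09. *Gatad2b*, another NuRD gene, was the lowest at -0.29 ± 0.39 and was also split, though over more embryos than *Cbx3* and mostly in M-Z- embryos. It had 23.9 CPM in M-Z+ replicate 1 and 49.6 to 61.9 CPM in M-Z- replicates 4, 5 and 6, whereas it had 121.2 to 162.5 CPM in the other 8 embryos.

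None of the 15 HP1 partners was called, and their log2 fold changes ranged from -0.44 for *Cbx7*, at 1.29 to 3.96 CPM, to 0.33 for *Nipbl*, the cohesin loader. In the list of ATRX partners and H3.3 deposition, none of 12 was called. *Daxx*, the H3.3 chaperone that ATRX binds, was at -0.05 ± 0.09 (SE), *H3f3a* and *H3f3b*, which encode H3.3, were at -0.14 ± 0.12 and 0.01 ± 0.09, and *Ubn2* was the highest at 0.31 ± 0.31. In the HUSH complex, a silencing complex that recruits SETDB1, the 4 tested genes ranged from 0.02 for *Mphosph8* to 0.29 for *Fam208a*, and among the 10 tested H3K9 demethylases the range was from -0.10 for *Kdm4b* to 0.26 for *Kdm7a*.

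Of the 12 tested genes for DNA methylation maintenance and imprint protection, 0 were called. *Dnmt1*, the maintenance methyltransferase, was at 0.13 ± 0.07 (SE) and *Uhrf1*, its cofactor, at 0.07 ± 0.07. *Dnmt3b* was the lowest at -0.08 ± 0.11 and *Rif1* the highest at 0.41 ± 0.30. Of 18 tested KRAB zinc-finger repressors, 8 were above 0 and 10 below, from -0.56 ± 0.37 for *Zfp459*, at 0.23 to 1.93 CPM, to 0.43 ± 0.42 for *Zfp568*. *Zfp568*, the repressor of the placental *Igf2* promoter, was also uneven, at 15.0 CPM in M-Z+ replicate 4, 33.8 in M-Z+ replicate 2 and 37.5 in M-Z- replicate 2, compared with 76.4 to 134.3 CPM in the other 9 embryos. In the SUMO pathway, which modifies TRIM28, the 11 tested genes ranged from -0.15 ± 0.08 for *Pias4* to 0.36 ± 0.24 for *Senp7*.

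Among 11339 tested genes with a mean of at least 10 CPM, the genes whose deviations from the genotype means were most like those of *Zfp57* over the 12 embryos were *Zfp87* (r = 0.80), *Tgif2* (0.78) and *Tmem60* (0.78). For *Trim28* they were *Sympk* (0.96), *Ppp2r5d* (0.95) and *Maged1* (0.94). These values are descriptions of the best of many genes and carry no test.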

How the data were processed

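RNA-seq of 12 E13.5 embryos was analysed, and the 12 embryos with whole-genome bisulfite sequencing listed with them were not analysed here. The authors deposited 1 table of raw counts per gene without normalization, and FPKM values that they made from the same counts with 1 length per gene (the largest deviation was 0.0715%). The submitters' processing notes name HISAT2 2.0.4, Trim Galore 0.4.1, Bismark 0.15.0, Bowtie2 2.2.9 and mm10. The sources used here name no counting program, annotation or strand setting, so antisense reads cannot be told apart. The methods of the paper describe other embryos. Of the gene symbols, 27 were turned into dates.

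Genes were tested on the counts with edgeR 4.0.16 in R 4.3.3 (TMM, filterByExpr, glmQLFit, glmQLFTest; 16026 genes), M-Z- against M-Z+ without covariates, with Benjamini-Hochberg adjustment. DESeq2 1.42.0 was an alternative. The fits were tested on simulated counts. The SE is the log2 fold change divided by the square root of F. Single values were compared with a two-sided exact permutation test over all divisions of 12 embryos into 6 and 6. Correlations used 100000 permutations. TPM was computed from the counts with the lengths implied by FPKM, or with the union of exons in GENCODE vM1, of which only lengths were used, since its build differs from that of the table. Promoter sequences are from RefSeq (GRCm38.p6), in which all 8 genes had an entry.

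The 8 genes and the lists were chosen with earlier results of these data known. By rule the text names the 8 genes, from each list the called genes or otherwise the tested genes with the highest and the lowest log2 fold change, 14 fixed partners, the 3 genes most like *Zfp57* and *Trim28*, and *Rtl1*. *Cbx6*, *Dnmt3a*, *Stmn2*, *Xist* and the Y-linked genes, *Hnrnpa2b1*, the *Cbx3* pseudogenes, *Vma21* and *Zfp664* were named after their values were seen. Other normalization factors, filters, thresholds, the replicate number as a block, the length slope as a covariate, a pseudocount of 1 TPM, the deposited FPKM and each embryo left out in turn were alternatives. DESeq2 with the slope, removal of the slope from ratios and correlations, the union of exons and the 9 embryos of lower slope were added after the data were seen. No 2 libraries held identical counts.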

Additional observations from a re-analysis of the deposited data

Results flagged for a closer look

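In groups of 6 embryos, 4 of 32 groups of member levels and ratios had 1 embryo far from the others by Dixon's criterion, compared with 1.6 that chance gives at 1 in 20. *Cbx3* was low in M-Z+ replicate 1 at 49.53 CPM, where the other 5 M-Z+ embryos had 125.5 to 144.1 CPM. The log2 share of *Cbx3* among the HP1 genes was accordingly low in the same embryo at -3.685 (others -2.739 to -2.312) and in M-Z- replicate 6 at -3.88 (others -2.807 to -2.489). The log2 ratio of *Zfp57* to *Zfp445* was high in M-Z+ replicate 4 at -1.305, where the other 5 M-Z+ embryos had -3.937 to -3.032. M-Z+ replicate 4 also had the lowest length slope of the 12 libraries at -0.1244, whose part in the ratio was not tested. The *Cbx3* values share 2 libraries and are not independent of each other.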

How the results depend on the processing

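The count of called genes was 0 among the 8 genes and 0 among the 111 partners in the alternatives that keep the adjusted p, namely DESeq2, the other factors and filters, no fold change limit, the length slope, the 9 embryos of lower slope, the replicate block and each embryo left out. The replicate numbers were not shown to pair embryos, since same-numbered embryos correlated at 0.107, -0.003, 0.303, 0.358, 0.105 and 0.661 and 3 of 6 correlated best with their own number. With the replicate block, none of the 8 was called, *Zfp445* was at 0.47 (95% interval 0.006 to 0.94, edgeR unadjusted p = 0.0478, adjusted p = 0.375), *Cbx5* at 0.22 (0.007 to 0.43, edgeR unadjusted p = 0.0441, adjusted p = 0.370) and *Cbx1* at -0.0071. Over all genes edgeR called 13, compared with 21 with the replicate block, 22 with the length slope, 37 with DESeq2, 63 with DESeq2 and the slope, and 11 to 15 with each embryo left out.

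The sign of these values changed with the processing, and the cause was not tested. *Cbx1* was at -0.023 with upper-quartile factors, -0.0021 with a mean of at least 50 counts, -0.051 and -0.054 with the length slope in edgeR and DESeq2, and -0.089 in the 9 embryos of lower slope. *Setdb1* was at -0.0062 and -0.0083 and *Atrx* at -0.18 and -0.18 with the length slope in edgeR and DESeq2, and *Cbx3* was at 0.10 in the 9 embryos. With each embryo left out in turn, whether or not the sign changed, *Zfp57* ranged from -0.24 to 0.0042, *Zfp445* from 0.20 to 0.63, *Atrx* from 0.068 to 0.51, *Cbx1* from -0.045 to 0.070, *Cbx3* from -0.23 to 0.078, the difference in the ratio of *Zfp57* to *Trim28* from -0.20 to 0.059 and that in the *Cbx3* share from -0.33 to 0.079. With the slope removed the last was 0.017 and *Atrx* to *Daxx* was -0.15.

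Of the correlations over 12 embryos, these changed sign. With the slope removed r was -0.21 for *Zfp57* with *Atrx*, -0.65, -0.067 and 0.11 for *Zfp445* with *Setdb1*, *Cbx1* and *Cbx3*, -0.51 and -0.048 for *Setdb1* with *Cbx5* and *Atrx*, 0.061 for *Cbx1* with *Cbx3*, 0.086 and 0.30 for *Cbx3* with *Cbx5* and *Atrx*, and -0.20 for *Cbx5* with *Atrx*. In the 9 embryos r was -0.70, -0.12 and -0.60 for *Zfp57* with *Setdb1*, *Cbx5* and *Atrx*, 0.0034 for *Zfp445* with *Cbx3*, -0.029, 0.0072 and -0.061 for *Setdb1* with *Cbx1*, *Cbx3* and *Cbx5*, and 0.38 and 0.18 for *Cbx3* with *Cbx1* and *Atrx*. None of these passed 0.05 after adjustment in the permutation test.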

Other observations

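The 2 embryos with low *Cbx3*, M-Z+ replicate 1 and M-Z- replicate 6, were compared with the other 10 over the 11339 tested genes with a mean of at least 10 CPM, after the values of *Cbx3* had been seen. In 3 genes both embryos were more than 1.5-fold below the lowest of the others. *Vma21*, which encodes an assembly factor of the vacuolar proton pump, had 17.6 and 20.2 CPM in them and 55.7 to 72.2 CPM in the others. *Cbx3* was the second of these, and *Zfp664*, which encodes a zinc-finger protein, had 31.2 to 56.7 CPM compared with 95.4 to 254.7 CPM. The embryos are of both genotypes, so these genes do not separate M-Z+ from M-Z- embryos. No such split was seen in *Trim28*, which was between 433.1 and 637.5 CPM in all 12 embryos.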
